A study of Homo sapiens with 6 samples.

Results

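Expression of 42 genes that build or organise the contacts between epithelial cells was compared between Vector and OE-MMP28 AsPC-1 cells. The genes were picked by name, as members of the adherens junction, the desmosome, the tight junction, the polarity complexes and the cornified envelope, and all 42 were found by symbol among the 58735 genes of the count table. AsPC-1 is a human pancreatic cancer line that has long been established in culture. Vector cells (n = 3) carried an empty lentivirus and OE-MMP28 cells (n = 3) a lentivirus with the cDNA of MMP28, a secreted matrix metalloproteinase. The study's methods describe a GFP and puromycin resistance cassette on the MMP28 virus and puromycin selection of stably infected cells, and the labels give both groups as genotype WT. The labels do not say whether the 3 samples of a group came from separate cultures, so p-values measure the spread between these samples, which may be technical.

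Adherens junctions join neighbouring cells through cadherins, which catenins link to actin, and through nectins, which afadin links to actin. Desmosomes join cells through desmogleins and desmocollins, tied to keratin filaments by plakoglobin, plakophilins and desmoplakin. Tight junctions seal the space between cells, with claudins forming the seal or its pores, and scaffold and polarity proteins place them at the upper edge of the lateral membrane. The cornified envelope is a protein shell of stratified epithelia, and periplakin, envoplakin and sciellin are among its precursors.

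Read counts summed to between 13633249 and 16691458 per library, the junction and envelope genes took between 0.653% and 0.819% of them, and 3 counts, the limit that a count of 0 allows, equalled 0.180 to 0.220 CPM (counts scaled to the library total). Mitochondrial genes took 11.9% to 14.8% of counts in Vector and 8.80% to 11.9% in OE-MMP28 libraries, and their part in the results below was not tested beyond repeating the fit without them. MMP28 stood at 5.17, 9.11 and 8.43 FPKM (fragments by gene length and library size) in Vector and at 13.1, 13.9 and 15.1 FPKM in OE-MMP28 libraries. This was a log2 fold change of 0.90 (SE 0.19, adjusted p = 0.00226, edgeR), and an exact permutation test, two-sided, of the FPKM values gave p = 0.1, which 3 against 3 libraries cannot go below. Of the duct epithelium markers, KRT8, KRT18 and KRT19 were abundant, and KRT17 and CFTR had at most 10 counts in any library. The 10 duct markers summed to 2688 to 3698 FPKM in Vector and 3875 to 4726 FPKM in OE-MMP28 libraries. Of the 8 tested, MUC1 (log2 fold change 2.16), KRT19 (0.71) and TSPAN8 (0.56) rose and ANXA10 (-1.35) fell, with adjusted p-values of 3.60e-08, 0.00175, 0.00908 and 0.00689 by edgeR. The part of these markers in the results below was not tested. The 10 macrophage markers summed to between 0.934 and 1.23 FPKM, with TYROBP at 0 and PTPRC at no more than 1 count. CD14 held most of that sum, at 0.970 FPKM in Vector and 0.635 FPKM in OE-MMP28 libraries on average, without overlap between the groups. Its log2 fold change was -0.60 (adjusted p = 0.243, edgeR). The 10 fibroblast markers summed to between 35.8 and 57.7 FPKM, of which LUM held most, while PDGFRA was at 0 and COL1A2, COL3A1, THY1 and FAP had at most 2 counts. ACTA2 of that list fell from 64, 71 and 82 to 34, 37 and 28 counts (log2 fold change -1.27, adjusted p = 0.00318, edgeR). The 8 endothelial markers summed to 1.15 to 1.94 FPKM in Vector and 1.91 to 2.48 FPKM in OE-MMP28 libraries, with KDR and TEK at 0 and CDH5 at no more than 1 count. ESAM of that list held most of the sum, at 1.28 FPKM in Vector and 1.76 FPKM in OE-MMP28 libraries on average. Its groups overlapped (log2 fold change 0.48, adjusted p = 0.239, edgeR). PECAM1 of that list went from 0, 4 and 4 to 13, 21 and 30 counts (log2 fold change 2.79, adjusted p = 0.00361, edgeR). In bulk samples, fewer cells of a type and less RNA per cell cannot be told apart.

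Of the 42 genes, 38 had enough counts to be tested, and 14 of these (36.8%) had an adjusted p under 0.05 by edgeR's quasi-likelihood test, against 23.4% of all 15319 genes tested. Higher in OE-MMP28 were 5 genes (13.2%, against 11.7% of all genes) and lower were 9 genes (23.7%, against 11.6% of all genes). The genes that rose were CLDN2, NECTIN3, NECTIN1, PKP2 and PKP3, and those that fell were SCEL, CDH3, CLDN3, DSG3, CLDN4, CDH1, PATJ, PARD3 and TJP1. The median log2 fold change of the 38 was -0.23, with 26 below 0, against a median of 0.01 over all genes tested. Of 67 tested genes on other lists, described below, 23.9% passed the adjusted threshold. The 42 genes were chosen with earlier results of these data known, so these comparisons cannot test whether junction genes changed more than others. Genes called lower numbered 5 without OE-MMP28 replicate 3, 6 without OE-MMP28 replicate 2 and 5 with an offset for the local median of neighbouring genes, and genes called higher numbered 3 without Vector replicate 3 or OE-MMP28 replicate 2. The median of the 38 was -0.13 without Vector replicate 2, -0.12 without OE-MMP28 replicate 3 and -0.14 with that offset. On scaled counts, 16 of the 38 (42.1%) did not overlap between the groups, 5 higher and 11 lower, against 38.1% of all genes, 19.5% higher and 18.6% lower. The study's limits were read as a p under 0.05 before adjustment and a log2 fold change beyond 1 in either direction. With them in the edgeR fit, 3 of the 38 were higher and 3 lower, where 8.5% of all genes passed, 3.45% higher and 5.05% lower. The study names limma for its own comparison, so these counts are not those of its gene list. Only SCEL, CLDN2 and NECTIN1 passed the adjusted threshold in all 19 alternative fits run. The other 4 genes had too few counts: CGNL1 was at 0 in all 6 libraries, NECTIN4 had 1 count in 1 library, CLDN18 at most 3 counts and PKP1 at most 12 counts.

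**Figure D1:**
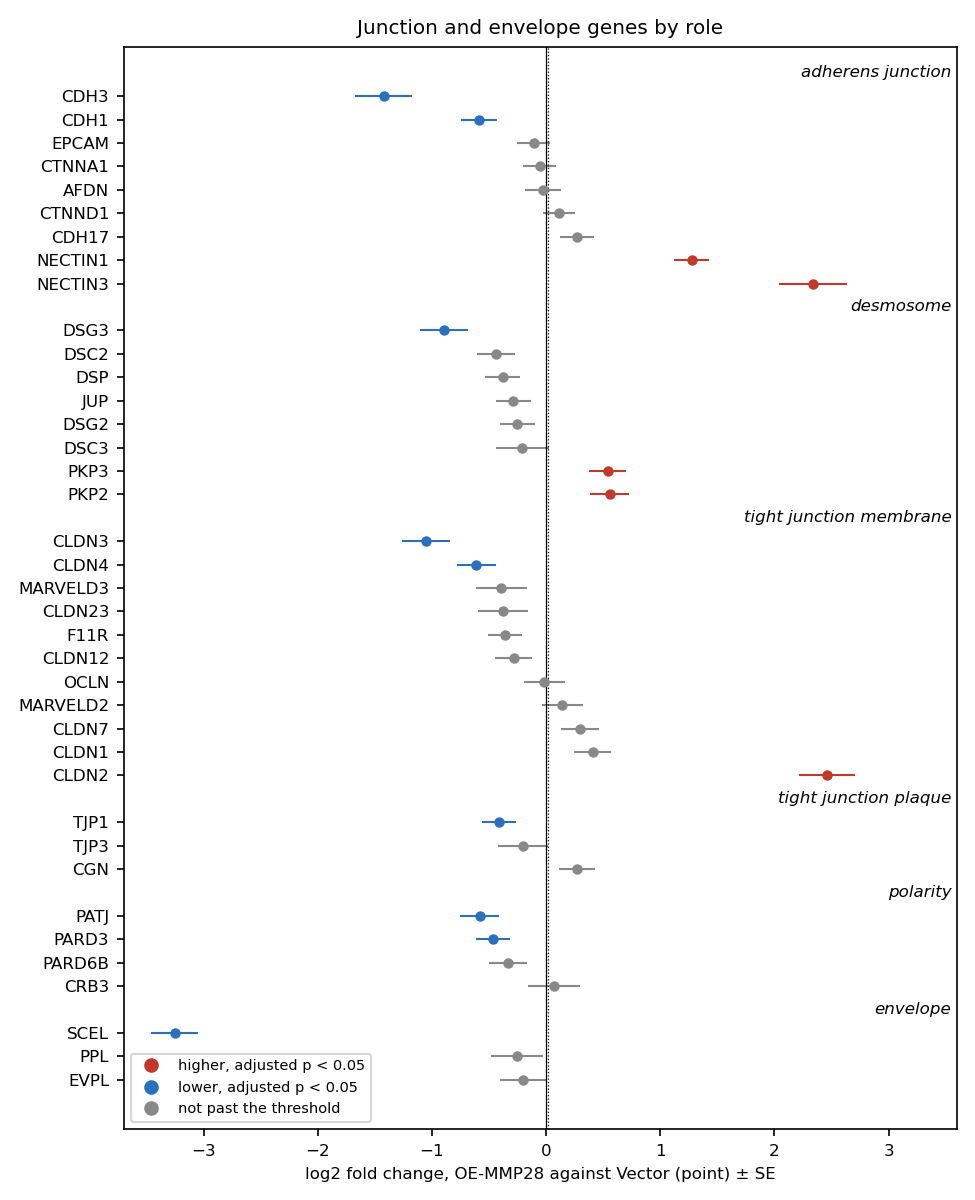
log2 fold change, OE-MMP28 against Vector, of the 38 tested genes with its SE, grouped by role; red and blue mark genes with an adjusted p under 0.05 by edgeR, and the dotted line is the median over all genes tested (0.01). SCEL at -3.25 lies farthest to the left and CLDN2 at 2.46 farthest to the right, and each of the adherens junction, desmosome and tight junction membrane groups holds red and blue points.

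The letters just before a RefSeq start of these genes are shown for those with an absolute log2 fold change over 0.6 and an adjusted p under 0.05, to let the promoters that moved most be read beside their values. RefSeq windows of 250 bases before to 50 bases after a start (GRCh38.p14) were at hand for 27 of the 42 genes, in 40 windows, and for 6 of these 8 genes. The 15 genes with no window used here were CTNND1, NECTIN1, F11R, PPL, EPCAM, PARD6B, PKP3, CDH17, PARD3, CLDN23, PKP2, EVPL, MARVELD3, CDH3 and CDH1. The RefSeq starts need not be the starts of the gene intervals in the count table. The windows of CLDN4 and NECTIN3 and the second window of CLDN2 lie inside those intervals. The intervals begin at 73799542, 111070071 and 106900164. Capitals mark CACCTG, the E-box that SNAI and ZEB repressors are known to bind, or TGACTCA, the AP-1 motif, as read on either strand. SCEL and CLDN4, which both fell, each held one TGACTCA, at 49 and 161 bases before the start:
SCEL (chr13:77535456-77535755, plus strand): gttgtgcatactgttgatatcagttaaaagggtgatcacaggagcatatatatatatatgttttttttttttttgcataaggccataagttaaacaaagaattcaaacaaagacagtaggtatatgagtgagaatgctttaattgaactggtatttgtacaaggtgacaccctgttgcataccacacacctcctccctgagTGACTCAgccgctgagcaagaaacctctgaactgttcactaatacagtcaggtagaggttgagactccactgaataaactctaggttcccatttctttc
CLDN4 (chr7:73830746-73831045, plus strand): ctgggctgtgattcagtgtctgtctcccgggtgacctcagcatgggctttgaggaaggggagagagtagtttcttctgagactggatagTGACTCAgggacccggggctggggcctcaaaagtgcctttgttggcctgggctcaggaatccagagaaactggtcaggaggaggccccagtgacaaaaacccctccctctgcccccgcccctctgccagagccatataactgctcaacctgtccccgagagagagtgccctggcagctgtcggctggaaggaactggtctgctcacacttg
CLDN3, which lies beside CLDN4 and also fell, held one E-box, read as CAGGTG, 37 bases into the transcript, and DSG3 held neither motif:
CLDN3 (chr7:73770221-73770520, minus strand): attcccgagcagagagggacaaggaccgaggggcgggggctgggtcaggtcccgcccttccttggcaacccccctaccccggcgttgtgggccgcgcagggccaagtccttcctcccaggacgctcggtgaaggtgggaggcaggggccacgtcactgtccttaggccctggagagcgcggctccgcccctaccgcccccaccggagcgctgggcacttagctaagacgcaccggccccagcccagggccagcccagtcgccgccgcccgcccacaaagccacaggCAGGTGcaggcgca
DSG3 (chr18:31447491-31447790, plus strand): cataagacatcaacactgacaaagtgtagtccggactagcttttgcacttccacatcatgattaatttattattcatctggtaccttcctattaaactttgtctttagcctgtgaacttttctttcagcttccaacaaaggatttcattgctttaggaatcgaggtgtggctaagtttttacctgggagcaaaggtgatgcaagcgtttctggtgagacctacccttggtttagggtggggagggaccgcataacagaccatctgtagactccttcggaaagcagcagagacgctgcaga
The windows of the genes that rose, both of CLDN2 and the one of NECTIN3, held neither motif:
CLDN2 first window (chrX:106899914-106900213, plus strand): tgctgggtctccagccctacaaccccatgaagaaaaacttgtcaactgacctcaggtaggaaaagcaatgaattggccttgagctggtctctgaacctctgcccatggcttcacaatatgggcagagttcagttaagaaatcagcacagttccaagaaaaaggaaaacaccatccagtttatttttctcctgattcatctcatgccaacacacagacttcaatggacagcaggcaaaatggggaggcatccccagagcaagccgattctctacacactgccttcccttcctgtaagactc
CLDN2 second window (chrX:106918110-106918409, plus strand): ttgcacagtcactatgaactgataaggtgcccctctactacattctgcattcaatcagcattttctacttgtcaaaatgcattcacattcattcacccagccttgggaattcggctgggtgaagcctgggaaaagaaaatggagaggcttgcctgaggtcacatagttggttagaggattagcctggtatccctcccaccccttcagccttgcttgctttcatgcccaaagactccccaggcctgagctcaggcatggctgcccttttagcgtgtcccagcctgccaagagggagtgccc
NECTIN3 (chr3:111071566-111071865, plus strand): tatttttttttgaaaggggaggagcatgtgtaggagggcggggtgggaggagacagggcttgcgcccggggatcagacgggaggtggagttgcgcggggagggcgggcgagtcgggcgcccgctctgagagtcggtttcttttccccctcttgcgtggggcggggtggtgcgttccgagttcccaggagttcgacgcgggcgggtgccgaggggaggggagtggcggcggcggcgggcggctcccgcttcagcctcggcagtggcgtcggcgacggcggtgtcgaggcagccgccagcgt

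Among the 40 windows, 15 (37.5%) held CACCTG on either strand, against 20.6% of all 35116 windows of that length, and 2 (5.00%) held TGACTCA, against 4.95%. The GC box GGGCGG was in 67.5% of the 40 windows against 45.0% of all, and TATAAA in 2.50% against 11.5%. No motif contains another. The genes with an E-box in a window were 14, and of these CLDN3, PATJ and TJP1 fell while the other 11 did not pass the test or were not tested. A match is only a match of letters, and no binding was measured.

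Among adherens junction genes, 9 of 10 were tested, 2 rose and 2 fell (44.4%, against 23.4% of all genes). The genes that rose were NECTIN1 and NECTIN3. NECTIN1, a cell adhesion receptor of the immunoglobulin family, stood at 8.03, 6.56 and 6.62 FPKM in Vector and at 15.8, 18.0 and 17.3 FPKM in OE-MMP28 libraries. The lowest OE-MMP28 library lay above the highest Vector library, with a ratio of means of 2.40 and a log2 fold change of 1.28 (SE 0.15, adjusted p = 7.13e-06, edgeR). NECTIN3, which binds nectin-1 on the neighbouring cell, rose from 0.243, 0.287 and 0.208 to 1.54, 1.35 and 0.846 FPKM. Its log2 fold change was 2.34 (SE 0.30, adjusted p = 1.41e-05, edgeR), from 19 to 24 counts in Vector and 88 to 151 counts in OE-MMP28 libraries. NECTIN2, a nectin outside the 42 genes and the most abundant of the 4, overlapped between the groups, at 18.6 ± 6.18 FPKM in Vector and 20.4 ± 4.19 FPKM in OE-MMP28 libraries (SD, n = 3). Its log2 fold change was 0.15 (adjusted p = 0.636, edgeR). Summed over all 4 nectins, transcripts went from 25.9 ± 5.97 to 38.7 ± 5.01 FPKM (SD, n = 3), and over NECTIN1, NECTIN3 and NECTIN4 alone from 7.32 ± 0.826 to 18.3 ± 1.00 FPKM. AFDN, which encodes the afadin that nectins bind inside the cell, had a log2 fold change of -0.03 (SE 0.16, adjusted p = 0.919, edgeR).

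The classical cadherins CDH3 and CDH1 fell. CDH3, P-cadherin, stood at 1.67, 2.74 and 1.62 FPKM in Vector and at 0.639, 0.900 and 0.686 FPKM in OE-MMP28 libraries, a log2 fold change of -1.42 (SE 0.25, adjusted p = 0.000408, edgeR). CDH1, E-cadherin, stood at 22.0, 21.6 and 17.3 FPKM in Vector and at 14.5, 14.8 and 10.9 FPKM in OE-MMP28 libraries, a log2 fold change of -0.59 (SE 0.16, adjusted p = 0.0113, edgeR). Neither gene overlapped between the groups. Both lie on chromosome 16 in the same orientation, CDH3 at 68636189 to 68722616 and CDH1 at 68737225 to 68835548, with 14.6 kb between them. The 116 other tested genes within 5 Mb on either side had a median log2 fold change of -0.38. After this local median was taken off as an offset in the fit, CDH3 stayed lower at -1.04 (adjusted p = 0.00694, edgeR), whereas CDH1 was at -0.21 (adjusted p = 0.422, edgeR). Without OE-MMP28 replicate 3, CDH1 was at -0.46 (adjusted p = 0.0609, edgeR).

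The most abundant cadherin of these cells was neither of them. CDH17, liver-intestine cadherin, a seven-repeat cadherin of gut epithelium, stood at 261, 316 and 293 FPKM in Vector and at 397, 345 and 302 FPKM in OE-MMP28 libraries. The groups overlapped and the log2 fold change of 0.27 (SE 0.15, adjusted p = 0.191, edgeR) missed the threshold. With the local median, -0.23 at this gene, taken off, it was at 0.50 (adjusted p = 0.0239, edgeR). Of the summed FPKM of CDH1, CDH3 and CDH17, CDH17 held 92.8% ± 1.12 in Vector and 96.1% ± 0.380 in OE-MMP28 libraries (SD, n = 3), while CDH1 held 6.54% ± 1.10 and 3.70% ± 0.344. These shares did not overlap between the groups, and each had p = 0.1 in a two-sided exact permutation test, the floor for 3 against 3. The catenin genes CTNNA1 and CTNND1 and the adhesion molecule gene EPCAM overlapped between the groups, with log2 fold changes of -0.06, 0.11 and -0.11. EPCAM stood at 305, 327 and 308 FPKM in Vector, above CDH17 in each library, and at 328, 260 and 277 FPKM in OE-MMP28 libraries, below CDH17 in each.

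In the desmosome, 8 of 9 genes were tested, 2 plakophilins rose and 1 cadherin fell (37.5%, against 23.4% of all genes). PKP2 stood at 10.1, 8.14 and 9.28 FPKM in Vector and at 15.7, 14.4 and 10.1 FPKM in OE-MMP28 libraries, a log2 fold change of 0.56 (SE 0.17, adjusted p = 0.0211, edgeR). PKP3 stood at 40.8, 32.2 and 35.4 FPKM in Vector and at 41.2, 55.9 and 59.1 FPKM in OE-MMP28 libraries, a log2 fold change of 0.54 (SE 0.16, adjusted p = 0.0212, edgeR). In both genes the lowest OE-MMP28 library lay only just above the highest Vector library, and that library was OE-MMP28 replicate 3 for PKP2 and replicate 1 for PKP3. Both calls were lost in 4 of the 6 fits that left out a library. For PKP2 these were the fits without Vector replicate 2 or 3 or OE-MMP28 replicate 1 or 2 (log2 fold change 0.42 to 0.57, adjusted p 0.0612 to 0.123, edgeR). For PKP3 they were the fits without Vector replicate 2 or 3 or OE-MMP28 replicate 2 or 3 (log2 fold change 0.44 to 0.53, adjusted p 0.0589 to 0.119, edgeR). The sum of PKP1, PKP2 and PKP3 left a wider gap between the groups, at 50.9, 40.4 and 44.7 FPKM in Vector and at 57.0, 70.4 and 69.3 FPKM in OE-MMP28 libraries. With PKP4 added, it was 60.2, 50.4 and 55.0 FPKM in Vector and 66.5, 79.3 and 78.0 FPKM in OE-MMP28 libraries. Each sum had p = 0.1 in a two-sided exact permutation test, the floor for 3 against 3. The sums hold the same values as the PKP2 and PKP3 calls, so they are no separate support for them.

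DSG3, a desmosomal cadherin typical of stratified epithelium, fell from 23.4, 15 and 16.5 to 12, 11 and 6.34 FPKM, a log2 fold change of -0.89 (SE 0.21, adjusted p = 0.00402, edgeR). It lies in a block of desmosomal cadherin genes that spans 559 kb on chromosome 18, and it alone of the members in that block passed the test. On either side of it, DSG2 was at -0.25 (adjusted p = 0.256) and DSG4, which is not among the 42, at -0.10 (adjusted p = 0.851) on the log2 scale by edgeR. At the far end of the block, DSC2 was at -0.44 (adjusted p = 0.0648) and DSC3 at -0.21 (adjusted p = 0.559). DSG2, the desmoglein of simple epithelia, stood at 161, 151 and 167 FPKM in Vector and at 156, 142 and 103 FPKM in OE-MMP28 libraries. DSG3 held 10.2% ± 2.15 of the summed FPKM of DSG2 and DSG3 in Vector and 6.73% ± 0.793 in OE-MMP28 libraries (SD, n = 3), without overlap. DSP, which encodes desmoplakin, was at -0.38 (adjusted p = 0.0774, edgeR) and JUP, which encodes plakoglobin, at -0.29 (adjusted p = 0.180, edgeR) on the log2 scale. PKP2 and PKP3 had log2 fold changes above 0, whereas those of DSG2, DSG3, DSC2 and DSC3 were below 0, as was that of PKP4, a plakophilin outside the 42 genes (-0.12, adjusted p = 0.595, edgeR). OE-MMP28 replicate 3 had the lowest level of the 3 OE-MMP28 libraries for DSG2, DSG3, DSC2, DSC3 and DSP.

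**Figure D2:**
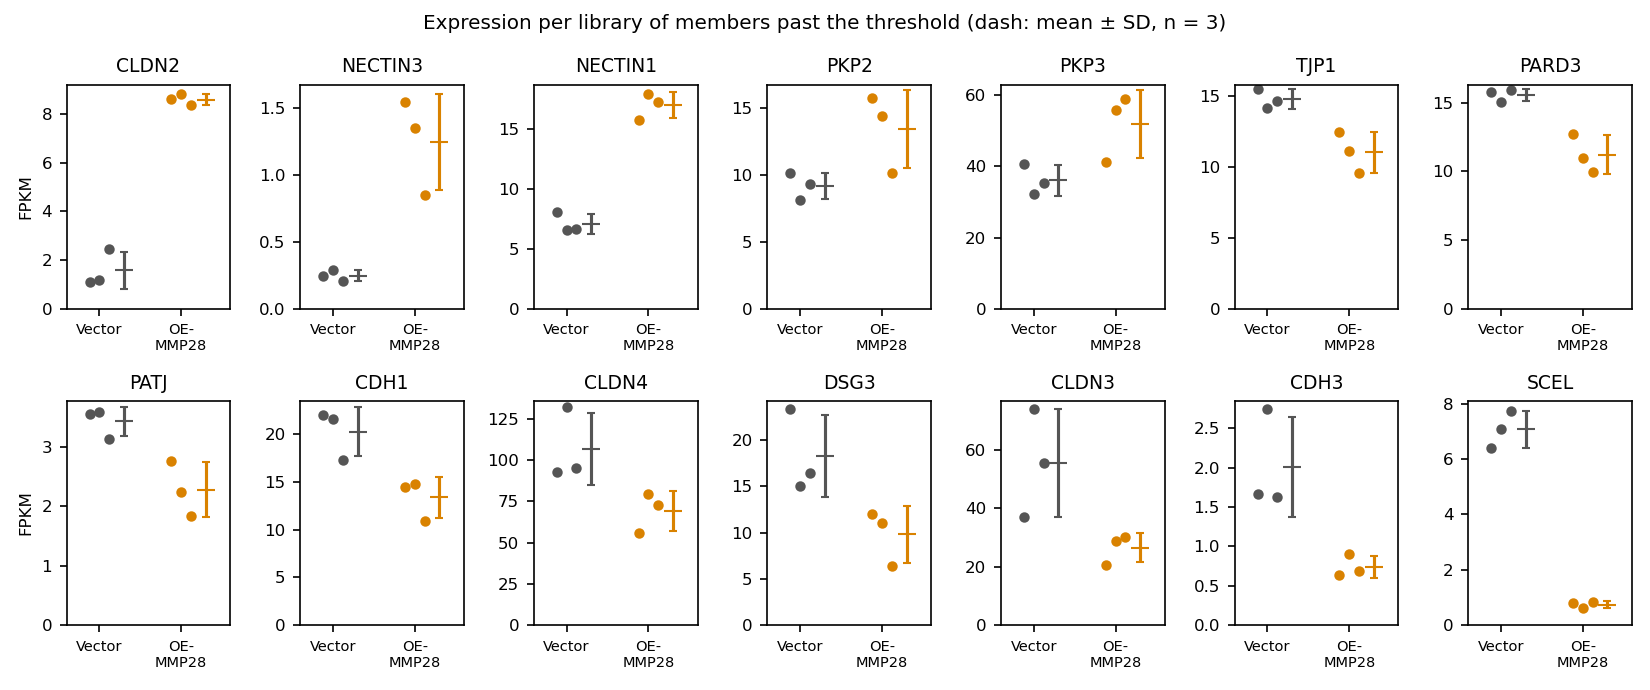
FPKM of the 14 genes with an adjusted p under 0.05 by edgeR, ordered from the largest rise to the largest fall; points are the 3 libraries of a group from replicate 1 at the left to replicate 3 at the right, dashes and bars the mean and SD, and each panel has its own axis from 0. SCEL, CLDN2, NECTIN1 and NECTIN3 show wide gaps between the groups, whereas the lowest OE-MMP28 point of PKP2 and PKP3 touches the Vector range.

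Of the 12 tight junction membrane genes 11 were tested, and 1 rose and 2 fell (27.3%, against 23.4% of all genes). All 3 were claudins. CLDN2, the claudin known for its cation and water pores in leaky epithelia, stood at 1.07, 1.17 and 2.47 FPKM in Vector and at 8.62, 8.82 and 8.38 FPKM in OE-MMP28 libraries. Its lowest OE-MMP28 library lay far above its highest Vector library, with a ratio of means of 5.48 and a log2 fold change of 2.46 (SE 0.25, adjusted p = 7.61e-07, edgeR). CLDN3, a sealing claudin, fell from 36.9, 73.9 and 55.5 to 20.7, 28.7 and 30.1 FPKM, a log2 fold change of -1.05 (SE 0.21, adjusted p = 0.00144, edgeR). CLDN4, its neighbour in sequence family and on chromosome 7, fell from 92.7, 132 and 95.6 to 55.7, 79.5 and 72.8 FPKM, a log2 fold change of -0.61 (SE 0.17, adjusted p = 0.0135, edgeR). CLDN3 (73768997 to 73770270, minus strand) and CLDN4 (73799542 to 73832693, plus strand) are 29.3 kb apart as gene intervals. The promoter window of CLDN4 printed above lies farther off, from 73830746. The 74 other tested genes around them had a median log2 fold change of -0.14, and with it taken off CLDN3 was at -0.91 (adjusted p = 0.00636, edgeR) and CLDN4 at -0.47 (adjusted p = 0.0697, edgeR). CLDN4 also lost its call without Vector replicate 2 or without OE-MMP28 replicate 1 (log2 fold change -0.43 and -0.49, adjusted p = 0.0617 and 0.0629, edgeR).

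CLDN1 had a log2 fold change of 0.41 (SE 0.16, adjusted p = 0.0796, edgeR) and CLDN7 of 0.29 (SE 0.17, adjusted p = 0.216, edgeR), and both overlapped between the groups. CLDN12 was at -0.29 (adjusted p = 0.228, edgeR) and CLDN23, whose groups did not overlap, at -0.38 (adjusted p = 0.220, edgeR). The makeup of the claudin transcripts within a library does not depend on how libraries are scaled to each other, and it was examined after the values of the single genes had been seen. CLDN3 and CLDN4 together held 65.4%, 71.3% and 67.6% of the summed FPKM of the 8 claudins in Vector and 45.6%, 52.4% and 54.9% in OE-MMP28 libraries. CLDN2 went from 0.684% ± 0.370 to 4.63% ± 0.460, CLDN1 from 10.3% ± 0.525 to 17.3% ± 4.16 and CLDN7 from 12% ± 1.61 to 18.0% ± 2.05 (SD, n = 3). None of these shares overlapped between the groups, and each had p = 0.1 in the same permutation test, again the floor. As parts of the same sum the shares are tied, so lower CLDN3 and CLDN4 by themselves raise the shares of the others. Claudins outside the 42 genes, such as CLDN15 at 4.13 FPKM in Vector and 3.11 FPKM in OE-MMP28 libraries on average, were not in the sum. The shares of CLDN12 and CLDN23 overlapped, at 7.26% and 1.71% in Vector and 7.47% and 1.63% in OE-MMP28 libraries. Summed over all 8 claudins, the level was 237 ± 46.8 FPKM in Vector and 187 ± 19.5 FPKM in OE-MMP28 libraries (SD, n = 3), with overlap between the groups (two-sided exact permutation p = 0.2).

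**Figure D3:**
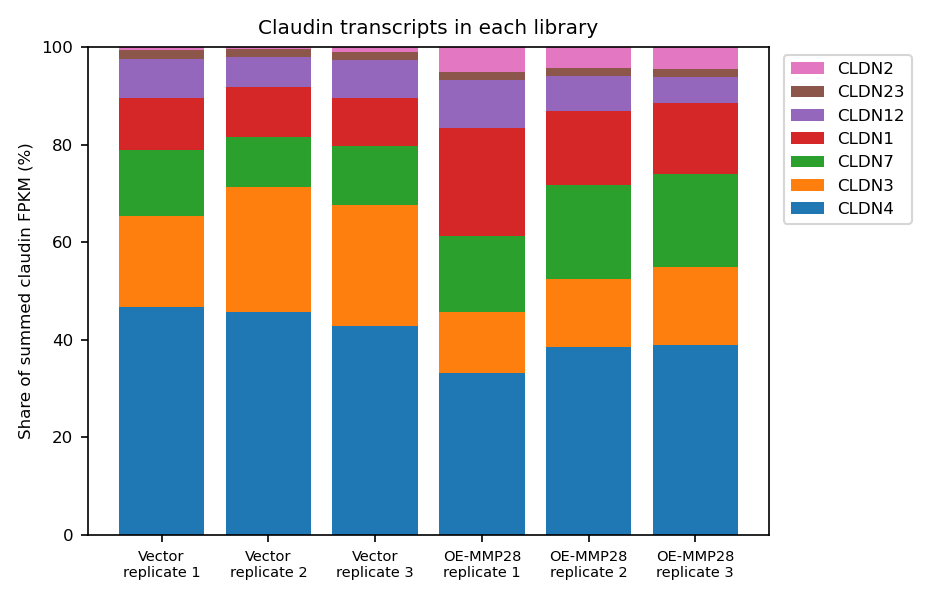
Share of each claudin in the summed FPKM of the 8 claudins among the 42 genes, for each of the 6 libraries, as stacked bars in percent. CLDN18 is at most 0.024% and is not drawn. CLDN3 and CLDN4 together fill 65.4% to 71.3% of the Vector bars and 45.6% to 54.9% of the OE-MMP28 bars, and the CLDN2 band widens from 0.406% to 1.10% in Vector to 4.27% to 5.15% in OE-MMP28.

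The other tight junction membrane genes did not pass the test. OCLN, which encodes occludin, was at 7.64, 6.91 and 7.37 FPKM in Vector and at 8.19, 8.26 and 5.12 FPKM in OE-MMP28 libraries (log2 fold change -0.01, SE 0.18). Its pseudogene OCLNP1, which could share reads with it, averaged 39.2 counts against 750 for OCLN. MARVELD2, which encodes tricellulin and lies 48.0 kb from OCLN, had a log2 fold change of 0.14 (SE 0.18). F11R, which encodes the junctional adhesion molecule JAM-A, was at 15.7, 16.3 and 14.6 FPKM in Vector and at 13.5, 11.7 and 11.1 FPKM in OE-MMP28 libraries. Its groups did not overlap, but the log2 fold change of -0.36 (SE 0.15, adjusted p = 0.0901, edgeR) missed the threshold. AL591806.3 shares 36.6% of the exon length of F11R on the same strand, and its own count was at most 10. MARVELD3 (log2 fold change -0.39, adjusted p = 0.215, edgeR) shares 16.6% of its exon length with PHLPP2 on the other strand, which averaged 1038 counts. The sources used here do not say whether counting used the strand, so the MARVELD3 value is uncertain.

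In the tight junction plaque, TJP1, which encodes the scaffold ZO-1, stood at 15.5, 14.2 and 14.7 FPKM in Vector and at 12.4, 11.1 and 9.56 FPKM in OE-MMP28 libraries. The log2 fold change was -0.41 (SE 0.15, adjusted p = 0.0468, edgeR), the call nearest to the threshold of all 14. The call was lost in every fit that left out a library other than OE-MMP28 replicate 1, with log2 fold changes of -0.44 to -0.32 and adjusted p-values of 0.0519 to 0.153 by edgeR. TJP3 and CGN, which encode ZO-3 and cingulin, had log2 fold changes of -0.20 and 0.27 and overlapped between the groups.

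Of the 4 polarity genes, all were tested and 2 fell. PATJ, a scaffold of the Crumbs complex, stood at 3.56, 3.6 and 3.15 FPKM in Vector and at 2.76, 2.25 and 1.83 FPKM in OE-MMP28 libraries, a log2 fold change of -0.58 (SE 0.17, adjusted p = 0.0182, edgeR). The other tested genes around PATJ on chromosome 1 had a median of 0.29, so with the local median taken off PATJ was at -0.87 (adjusted p = 0.00169, edgeR). Without OE-MMP28 replicate 2 or 3 its call was lost (log2 fold change -0.59 and -0.45, adjusted p = 0.0782 and 0.0894, edgeR). PARD3, a scaffold of the Par complex, stood at 15.8, 15.1 and 15.9 FPKM in Vector and at 12.7, 11 and 9.93 FPKM in OE-MMP28 libraries, a log2 fold change of -0.47 (SE 0.15, adjusted p = 0.0274, edgeR). The 31 other tested genes around PARD3 on chromosome 10 had a median of -0.61, and with it taken off PARD3 changed sign to 0.14 (adjusted p = 0.568, edgeR). The call was also lost without Vector replicate 1 or 3 or OE-MMP28 replicate 2 or 3 (log2 fold change -0.46 to -0.39, adjusted p 0.0546 to 0.116, edgeR). PARD6B and CRB3 had log2 fold changes of -0.33 (SE 0.17) and 0.07 (SE 0.23) and overlapped between the groups.

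The envelope gene SCEL changed most of the 42. SCEL, which encodes sciellin, stood at 6.41, 7.07 and 7.75 FPKM in Vector and at 0.782, 0.6 and 0.82 FPKM in OE-MMP28 libraries, from 402 to 480 and from 40 to 58 counts. The Vector mean was 9.64 times the OE-MMP28 mean, and the log2 fold change was -3.25 (SE 0.21, adjusted p = 3.54e-09, edgeR), between -3.35 and -3.14 in the fits that left out a library. SCEL lies on chromosome 13 at 77535674 to 77645263, and the 20 other tested genes around it had a median log2 fold change of -0.08. PPL and EVPL, which encode the plakins periplakin and envoplakin, overlapped between the groups, with log2 fold changes of -0.25 (SE 0.23, adjusted p = 0.451, edgeR) and -0.20 (SE 0.20, adjusted p = 0.517, edgeR). In both genes Vector replicate 2 was the highest of all 6 libraries, at 4.34 FPKM for PPL and 40.1 FPKM for EVPL. Of the summed FPKM of SCEL, PPL and EVPL, SCEL held 18.8% ± 4.50 in Vector and 2.68% ± 0.794 in OE-MMP28 libraries (SD, n = 3).

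The surroundings of each gene on its chromosome were compared because neighbouring genes had moved together in earlier results of these data. The local median lay between -0.46 and 0.48 on the log2 scale for the middle 90% of all genes tested. It was -0.45 at EPCAM, -0.40 at CLDN23, -0.37 at MARVELD3, 0.39 at CLDN1 and 0.47 at NECTIN1. CLDN1, CLDN23 and MARVELD3 had log2 fold changes of 0.41, -0.38 and -0.39, close to those local medians. With the local median as an offset, 10 of the 14 calls were kept (CLDN2, NECTIN3, NECTIN1, PKP2, PKP3, SCEL, CDH3, CLDN3, DSG3 and PATJ), CDH1, CLDN4, PARD3 and TJP1 were lost and CDH17 was gained. The offset entered the fit as a known value, so the p-values with it leave out the error of the local median, which rests on 20 genes at SCEL.

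**Figure D4:**
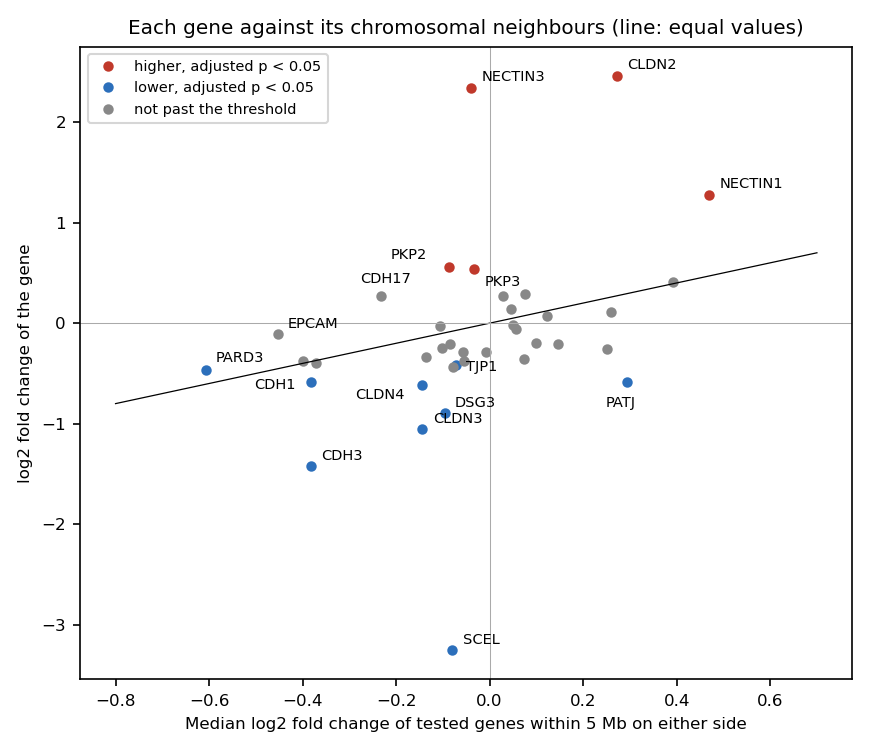
log2 fold change of each of the 38 tested genes against the median log2 fold change of the other tested genes within 5 Mb on either side; the line marks equal values, and colours are as for the plot of fold changes by role. SCEL, CLDN2, NECTIN3 and CDH3 lie far from the line, whereas CDH1 at -0.59 and PARD3 at -0.47 lie near it, beside local medians of -0.38 and -0.61.

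The 14 calls were repeated under the alternative fits. DESeq2, limma voom, the stricter filter, both other scalings and the counts without mitochondrial genes kept all 14 calls, and the 6 fits that left out a library kept 9 to 12. limma on log2(FPKM + 1) kept 6 (SCEL, CDH3, CLDN3, CLDN2, NECTIN1 and NECTIN3), and without a filter on low values it kept SCEL, CLDN2 and NECTIN1. Among genes that missed the threshold, DSC2 passed it in 6 of the 19 alternative fits and DSP in 2.

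Other genes of the same structures, connexins, and transcription and splicing factors that act on junction genes were read from lists of 130 genes. Of these 67 were tested, 11 were higher and 5 were lower (23.9%, against 23.4% of all genes). Among 10 tested adherens junction genes outside the 42, 4 rose and 3 fell (70.0%). CTNNB1, which encodes beta-catenin, the partner of E-cadherin, was lower, at 35.3, 37.4 and 40.8 FPKM in Vector and 28.4, 29.4 and 23.3 FPKM in OE-MMP28 libraries (log2 fold change -0.47, SE 0.15, adjusted p = 0.0226, edgeR). Without Vector replicate 3 or OE-MMP28 replicate 3 that call was lost (adjusted p 0.0929 to 0.130, edgeR). EPB41L5, a regulator of adhesion turnover, fell from 3.88, 3.82 and 4.34 to 1.80, 1.29 and 1.13 FPKM (log2 fold change -1.50, SE 0.19, adjusted p = 9.55e-06, edgeR) and passed in all 19 alternative fits. ARVCF, a catenin of the p120 family, was at -1.10 (adjusted p = 0.0129, edgeR), or -0.94 (adjusted p = 0.0504) without Vector replicate 2. The genes that rose were CTNNAL1 (0.78), LIMA1 (0.70), PLEKHA7 (0.57) and AJUBA (0.49), as log2 fold changes, and AJUBA was at -0.12 with the local median taken off.

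Of the tested genes on the next lists, 20.0% of desmosome, 15.4% of tight junction, 7.14% of polarity and 16.7% of connexin genes passed. This stands against 23.4% of all genes. PERP, a desmosomal membrane protein gene, rose in the desmosome list (1 of 5 tested), from 186, 155 and 177 to 269, 236 and 209 FPKM (log2 fold change 0.47, adjusted p = 0.0228, edgeR), and with the local median taken off was at 0.43 (adjusted p = 0.0517, edgeR). AMOTL1 and AMOTL2, angiomotin-like genes, were higher among 13 tested tight junction genes (log2 fold change 0.63 and 0.64), and DLG1, a Scribble-complex scaffold gene, among 14 tested polarity genes (0.63). With the local median taken off, AMOTL1, AMOTL2 and DLG1 were at 0.20, -0.04 and 0.23 and passed no more. GJB2, which encodes connexin 26, was higher among 6 tested connexins, at 9.74, 9.50 and 7.86 FPKM in Vector and 13.8, 14.2 and 12.8 FPKM in OE-MMP28 libraries (log2 fold change 0.60, adjusted p = 0.0114, edgeR). The calls of GJB2, AMOTL1, AMOTL2 and PLEKHA7 were lost without Vector replicate 3 or OE-MMP28 replicate 2 (adjusted p 0.0639 to 0.1, edgeR). PERP lost its call without Vector replicate 2 or 3 or OE-MMP28 replicate 1 or 2 (adjusted p 0.0665 to 0.0925, edgeR), and AJUBA without Vector replicate 2 or 3 or OE-MMP28 replicate 2 or 3 (adjusted p 0.0767 to 0.192, edgeR).

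The envelope had little expression beyond SCEL, PPL and EVPL. Of 25 other envelope genes 3 could be tested and none passed by edgeR, 11, among them IVL, were at 0 in all 6 libraries, and 17 had at most 3 counts in any library. The 25 summed to between 1.27 and 3.14 FPKM per library. Among transcription factors and splicing factors known to set junction genes, 16 of 20 were tested, 2 rose and 2 fell. Each direction held 12.5% of those tested, close to the 11.7% of all genes that were higher and the 11.6% that were lower. ZEB1, a repressor of E-cadherin, was lower, at 7.17, 8.49 and 7.70 FPKM in Vector and 5.95, 4.40 and 4.89 FPKM in OE-MMP28 libraries (log2 fold change -0.61, SE 0.16, adjusted p = 0.00910, edgeR). It lies among genes with a local median of -0.57 and was at -0.04 (adjusted p = 0.902, edgeR) with that taken off, and its call was lost without OE-MMP28 replicate 2 (adjusted p = 0.0825, edgeR). PARD3 is among those genes and ZEB1 among the neighbours of PARD3, so their local medians describe the same stretch of chromosome 10. ESRP1, an epithelial splicing factor gene, was at -0.66 (adjusted p = 0.00908, edgeR), or -0.50 (adjusted p = 0.0537) without OE-MMP28 replicate 3. OVOL1 at 0.99 (adjusted p = 0.0259) and KLF4 at 0.47 (adjusted p = 0.0378) were higher by edgeR. The OVOL1 call was kept only without Vector replicate 2 or 3 and the KLF4 call only without Vector replicate 2 among the 6 fits that left out a library (adjusted p 0.0536 to 0.0857 and 0.0521 to 0.213). With the local median taken off, ESRP1 was at -0.44, OVOL1 at 0.72 and KLF4 at 0.32, and none of these 3 passed (adjusted p = 0.0925, 0.124 and 0.188, edgeR). SNAI2, another repressor of E-cadherin, overlapped between the groups at a log2 fold change of -0.03 (SE 0.18), and TWIST1 and TWIST2 were at 0 in all 6 libraries.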

How the data were processed

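RNA of 6 AsPC-1 samples was sequenced, 3 per group, and groups and replicate numbers came from the labels. The authors deposited raw read counts per gene, and per the labels HISAT2 2.0.5 and featureCounts 1.5.0-p3 were used. The genome build, the handling of multiple matches and the use of strand were not given in the sources used here. All 58735 gene identifiers and coordinates matched GENCODE release 29 on GRCh38. The authors also deposited FPKM values, used here to compare levels, and fold changes and p-values of their own comparison, which were not used. Per-sample columns left unmapped numbered 0.

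Genes were kept by filterByExpr (minimum count 10, minimum total 15), which left 15319, scaled by TMM and tested with edgeR 4.0.16 (R 4.3.3, quasi-likelihood test, group alone in the model, Benjamini-Hochberg adjustment over all genes tested). Each gene's local median was the median log2 fold change of the other tested genes starting within 5 Mb on either side, given at least 10 of them. As an offset it came from the same 6 libraries and was treated as known. Shares were computed from FPKM within a library. Motifs were searched on both strands of RefSeq promoter windows of 300 bases. Scripts were tested on simulated data.

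Alternatives were leaving out each library, a block for the replicate number, other filters and scalings, DESeq2 1.42.0, limma 3.58.1 on voom values or on log2(FPKM + pseudocount of 1 or 0.1) for genes averaging 0.5 FPKM or more, no mitochondrial genes, and the local median as an offset. Limits from counts cover counting error only, as reads that carry no molecular identifier need not be separate molecules. The genes, lists and tests were chosen with earlier results of these data known. Any of the 42 genes, MMP28, listed genes with an adjusted p under 0.05 and listed genes at or near 0 could be named. KRT8, KRT18, LUM, CD14, ESAM, CLDN15, SNAI2, NECTIN2, PKP4, DSG4 and the cell type markers with an adjusted p under 0.05 were named after their values were seen, as were the overlapping genes beside F11R and MARVELD3.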

Additional observations from a re-analysis of the deposited data

How the results depend on the processing

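The 14 calls gave 266 values under the 19 alternatives, of which 208 kept direction and side of the threshold, 56 lost the threshold and 2 changed sign. The 24 tested genes that missed the threshold gave 456, of which 420 kept direction and side, 13 passed the threshold and 23 changed sign, at main log2 fold changes of at most 0.38 in size. The cause was not tested where a setting's own construction does not show it.

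limma on log2(FPKM + 1) called 3 of the 42 genes higher and 3 lower, 1009 and 965 of all genes, and 5 and 3 of the other junction lists. With a pseudocount of 0.1 the same counts were 3 and 3, 1000 and 970, and 5 and 2. Without a filter on low values they were 2 and 1, 362 and 308, and 0 and 1, the median of the junction and envelope genes was -0.14, and MMP28 was at 0.84 (adjusted p = 0.0903). The local-median offset called 5 of the 42 lower, 1135 of all genes higher, and 6 higher and 3 lower in the other lists, with a median of -0.14. With the replicate block added, the other lists gave 5 and 3 and the median was -0.13. Without mitochondrial genes, 3 of the 42 lay wholly higher in OE-MMP28 libraries.

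Leaving out each library in turn, calls among the 42 ranged from 3 to 5 higher and from 5 to 11 lower. Over all genes they ranged from 985 to 1916 higher and from 1044 to 1949 lower, lowest without OE-MMP28 replicate 2, and in the other lists from 4 to 10 and from 3 to 7. Genes of the 42 without overlap ranged from 5 to 9 higher and from 12 to 17 lower, and their median log2 fold change from -0.32 without Vector replicate 1 to -0.12 without OE-MMP28 replicate 3. MMP28 ranged from 0.69 to 1.05 and stayed past the threshold.

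Under the local-median offset, and then with the replicate block added, the log2 fold changes that changed sign were PARD3 at 0.14 and 0.14, CTNND1 at -0.15 and -0.15, AFDN at 0.076 and 0.078, EPCAM at 0.34 and 0.34, CLDN23 at 0.018 and 0.019, and CRB3 at -0.053 and -0.065. Changes of sign also occurred on leaving out 1 library. The range over the 6 such fits was -0.15 to 0.016 for CTNNA1 and -0.38 to 0.23 for TJP3, both highest without Vector replicate 2, as was EVPL (-0.36 to 0.11) and PPL (-0.49 to 0.077). It was -0.44 to 0.073 for DSC3, with the sign changed without Vector replicate 1, and -0.056 to 0.31 for MARVELD2, changed without OE-MMP28 replicate 1. It was -0.11 to 0.10 for AFDN, changed without Vector replicate 2 or OE-MMP28 replicate 3, and -0.14 to 0.18 for OCLN, changed without Vector replicate 1 or OE-MMP28 replicate 3. It was -0.17 to 0.26 for CRB3, changed without Vector replicate 1 or 3 or OE-MMP28 replicate 2.

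Samples with the same replicate number showed no shared deviation, with correlations of 0.017, 0.008 and -0.088 for the 3 numbers, against -0.148 to 0.167 for unlike numbers. This cannot show whether samples of the same number were prepared together, which the labels do not say. With the replicate number as a block, 13 of the 14 calls were kept, TJP1 was at -0.42 (adjusted p = 0.0543) and DSC2 passed at -0.46 (adjusted p = 0.0338), both by edgeR. Genes of a few counts, such as NECTIN3 in Vector and PKP1, are limited by depth.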
